A study of Mus musculus with 39 samples.

Results

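The GATA transcription factors of the mouse are 6 genes, Gata1 to Gata6. Each was measured by 1 probe, found by its gene name in the scanner files, and together they were 6 of the 22327 named genes on a 1-colour Agilent array. The family was chosen by the measured values of Gata2, which stood far above the control after both inhibitors at the 2-cell stage, so every value of Gata2 that uses 2-cell arrays is given as a description with no test, whereas the other 5 genes and the other stages were tested. The embryos came from B6D2F1 and ICR mice and were made by in vitro fertilization, and zygotes were held for 6 h, from 4 h after insemination, in medium with 10 µM T247, an inhibitor of HDAC3, or 10 µM MGCD0103, an inhibitor of the Class I histone deacetylases HDAC1, HDAC2 and HDAC3. They were then moved to normal medium and collected at 12 h (1-cell stage), 24 h (2-cell stage) or 48 h (4-cell stage), beside non-treated controls. T247 was measured at all 3 of these stages and MGCD0103 at the first pair. Untreated oocytes (GV and MII) and later untreated embryos (8-cell, morula, blastocyst) completed 13 conditions with 3 arrays each. Every array held RNA pooled from 100 oocytes or embryos, so a level is an average over all of their cells, and fewer cells of a type and less RNA per cell cannot be told apart.

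GATA factors bind DNA through zinc fingers that recognise the letters GATA. Gata1, Gata2 and Gata3 are best known from blood cells, and Gata4, Gata5 and Gata6 from heart and endoderm. In the blastocyst Gata3 is a regulator of the trophectoderm, the outer layer that forms the placenta, where Gata2 is also used, and Gata6 and then Gata4 mark the primitive endoderm, the layer that forms the yolk sac. Histone deacetylases remove acetyl groups from histones, which generally goes with lower transcription.

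Levels are log2 signals after smooth quantile normalization, and a difference is the first condition minus the second on that scale, ± its standard error (SE) pooled over 39 arrays, with n = 3 arrays per condition. A gene was called higher or lower when the difference was at least 1 in size, the limma adjusted p was below 0.05 and the brighter condition was well above background on at least 2 of its 3 arrays. Levels of different probes cannot be set against each other. The study describes the 3 samples of a condition as independent biological replicates, and p-values measure the spread between them.

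The arrays of a condition correlated at 0.985 or more over all genes, apart from the 2-cell control, where replicate 1 stood apart with r of 0.951 and 0.958 to replicates 2 and 3, which correlated at 0.994 with each other. Differences of the members, neighbouring genes and genes named from lists that rest on the 2-cell control are therefore also given without replicate 1. Values of the 5 genes most like Gata2 and the list medians use all arrays. Leaving replicate 1 out moved the calls over all genes too. For T247 at the 2-cell stage they went from 1831 higher and 2701 lower to 1785 and 3953. For MGCD0103 they went from 2363 and 2651 to 2817 and 3686. A call gained or lost without replicate 1 is to be read against this. Control replicates 1, 2 and 3 lay on slides 1, 2 and 3, T247 arrays on slides 4 and 5 and MGCD0103 arrays on slide 6, so slide and treatment cannot be told apart. All 8 oocyte markers were well above background on every array up to the 8-cell stage, 5 of 5 measured 2-cell markers at the 2-cell stage in all 3 treatment groups, and 5 of 5 trophectoderm and 4 of 4 primitive endoderm markers in the blastocyst. Markers of other cells were present in part: 7 of 11 cumulus or granulosa markers were well above background on all GV arrays, with Amh, Ptx3 and Tnfaip6 on none, and Ptprc, the leukocyte marker, was on none outside GV oocytes and MGCD0103-treated 2-cell embryos. The median of all genes moved with the condition, by -0.23 for T247 against control at the 2-cell stage, -0.60 for MII against GV, -0.23 for 2-cell against 1-cell, 0.34 for morula against 8-cell, 0.11 for 1-cell against MII, -0.10 for 4-cell T247 against control and 0.19 for 2-cell MGCD0103 against T247, and by less than 0.1 in size in the other comparisons of conditions. Differences are to be read against these shifts. At the 2-cell stage the summed log2 signal of 11 cumulus or granulosa markers lay at 13.77 to 13.84 in the controls, 12.95 to 13.03 with T247 and 13.39 to 13.49 with MGCD0103. In those controls 6 of the 11 were well above background on no array. In 4-cell controls 10 were on none, all but Foxl2, and the sum still lay at 13.55 to 13.80. A sum of this height can thus come from Foxl2 alone, so it does not tell how much the other markers add at the 2-cell stage. That of 4 blood markers lay at 9.71 to 9.99, 10.81 to 10.88 and 10.44 to 10.73, and that of 6 sperm markers at 9.93 to 10.45, 9.28 to 9.64 and 10.33 to 10.46. Their part in the results was not tested.

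The sequences in front of Gata1, Gata2 and Gata3 are shown as a description. They are the 250 bases before the start of each gene in RefSeq (build GRCm38.p6; the array's own design uses an earlier build, and no position was carried between them). CpG pairs are in capitals:
Gata2, lower-coordinate start, chr6:88193641-88193890, plus strand: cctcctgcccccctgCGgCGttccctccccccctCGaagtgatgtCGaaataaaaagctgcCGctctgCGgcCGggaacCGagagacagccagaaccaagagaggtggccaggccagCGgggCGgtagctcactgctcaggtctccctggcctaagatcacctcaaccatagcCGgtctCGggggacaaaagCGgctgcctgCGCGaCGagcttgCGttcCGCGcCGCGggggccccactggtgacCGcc
Gata2, higher-coordinate start, chr6:88198414-88198663, plus strand: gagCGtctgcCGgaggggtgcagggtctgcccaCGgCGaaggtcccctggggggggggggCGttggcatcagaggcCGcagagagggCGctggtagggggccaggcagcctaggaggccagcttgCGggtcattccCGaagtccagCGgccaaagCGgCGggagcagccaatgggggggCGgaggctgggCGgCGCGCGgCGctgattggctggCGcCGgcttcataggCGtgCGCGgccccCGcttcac
Gata3, chr2:9878601-9878850, minus strand: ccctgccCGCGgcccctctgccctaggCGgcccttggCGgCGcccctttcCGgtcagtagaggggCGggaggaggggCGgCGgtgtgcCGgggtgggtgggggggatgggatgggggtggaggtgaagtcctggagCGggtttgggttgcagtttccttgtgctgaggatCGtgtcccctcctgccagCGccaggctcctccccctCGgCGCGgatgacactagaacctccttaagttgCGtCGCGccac
Gata1, chrX:7967911-7968160, minus strand: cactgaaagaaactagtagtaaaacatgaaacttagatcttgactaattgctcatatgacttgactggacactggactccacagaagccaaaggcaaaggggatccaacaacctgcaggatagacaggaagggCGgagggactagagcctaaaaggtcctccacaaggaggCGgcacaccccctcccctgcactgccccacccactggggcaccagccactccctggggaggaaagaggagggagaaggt
Gata2 has 2 listed starts with 22 and 24 CpG pairs in front of them, and 14.8 and 12.0% of 32851 mouse promoter windows of this length held at least as many. Gata3 had 19 (19.7% held at least as many), Gata5 had 22 (14.8%), and Gata1 had 2, where 81.2% held at least as many and the median window held 6. Gata5, with as many pairs as the lower-coordinate start of Gata2, was called lower with both inhibitors at the 2-cell stage. A link between CpG count and the direction of a difference was not tested. The letters GATA, searched on both strands, occurred 1 time in front of Gata1 and not in the windows of Gata2, Gata3 or Gata5, and 53.6% of all windows held them. A match describes these letters only. Entries for Gata4 and Gata6 were not used here. The probes themselves are 60 bases long, and those of Gata1, Gata2, Gata3 and Gata4 shared no run of 15 or more bases with any other probe on the array on either strand, whereas the probe of Gata5 shared runs of up to 19 bases with 13 other probes and that of Gata6 a run of 16 with 1.

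Gata2 in untreated development was near the detection limit through most of cleavage and bright in the blastocyst. It read 3.48, 4.10 and 3.80 in GV oocytes (well above background on none), 4.03, 4.505 and 3.71 in MII oocytes (on 1 array) and 4.02, 4.64 and 4.73 at the 1-cell stage (on 2). At the 2-cell stage the controls read 7.95, 6.03 and 6.18, then 4.72, 4.57 and 4.26 at the 4-cell stage and 2.20, 1.97 and 2.02 at the 8-cell stage, where no array was well above background. Replicate 1, the array that stood apart, was the highest of the 2-cell controls. Morulae read 4.31, 6.15 and 5.84 (well above background on 2, not on the first), and blastocysts 13.05, 12.84 and 12.86. The 2-cell mean was 2.26 above that of the 1-cell stage (1.87 without replicate 1), and the 4-cell mean minus the 2-cell mean was -2.21 (-1.84 without replicate 1). Both values use the control arrays that chose the family and carry no test. Its blastocyst level was 7.48 ± 0.38 above the morula (adjusted p = 9.14e-16), a 179-fold difference. The 8-cell level was below that of the 4-cell stage by at least 1.15-fold (1.04e-05), and the morula lay at least 2.18-fold above the 8-cell stage (1.07e-08). The steps from the 2-cell stage to the morula were smaller with normexp background correction (-0.84, -0.47 and 0.73). The bounds set the dim stage at the lowest signal that was well above background on each array.

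Gata3, the trophectoderm regulator, was bright in oocytes and zygotes, dim at mid cleavage and brightest in the blastocyst. Its mean was 11.9 ± 0.12 (SD, n = 3) in GV oocytes, 12.3 ± 0.08 in MII oocytes and 11.7 ± 0.21 at the 1-cell stage. It then fell by 2.82 ± 0.19 to the 2-cell stage (adjusted p = 6.80e-14, -3.01 without replicate 1) and read 7.81, 8.04 and 7.81 at the 4-cell stage, a fall of 0.996 from the 2-cell stage (-0.82 without replicate 1) that was short of the size threshold. From 8.69, 9.19 and 8.86 at the 8-cell stage it rose by 4.51 ± 0.19 to the morula (7.69e-18) and by a further 1.76 ± 0.19 to 15.27, 15.19 and 15.09 in the blastocyst (5.19e-09). The morula and blastocyst arrays did not overlap with each other or with any earlier stage. The rise from the 4-cell to the 8-cell stage, 1.03 ± 0.19 (8.34e-05), was the smallest that passed, and it was under the threshold in 7 of 17 alternatives.

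Gata6, an early primitive endoderm factor, had its lowest level at the 2-cell stage and climbed from there. The 2-cell controls read 6.91, 6.80 and 6.95, having fallen by 1.17 ± 0.15 from the 1-cell stage (adjusted p = 6.19e-08, -0.98 and not called without replicate 1). The 4-cell arrays read 11.12, 11.08 and 11.22, a rise of 4.25 ± 0.15 (1.45e-20, 4.07 without replicate 1) or 19.1-fold. A second step of 2.52 ± 0.15 led to the 8-cell stage (1.87e-12), after which morula (14.2 ± 0.11) and blastocyst (13.8 ± 0.49) overlapped.

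Gata4, the later primitive endoderm factor, was nearly level except in the morula. Its mean lay between 10.67 and 11.32 in all 6 stages from GV oocyte to 8-cell embryo. The morulae read 7.28, 7.25 and 7.04. Gata4 thus fell by 3.91 ± 0.21 from the 8-cell stage (adjusted p = 1.82e-15), a 15.1-fold fall. The blastocysts read 10.9995, 9.90 and 11.52, 3.62 ± 0.21 above the morula (1.58e-14), with the widest spread of the 13 conditions for this gene (SD 0.82).

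Gata1, the red cell factor, was not well above background on any oocyte or 1-cell array, where all 9 untreated readings lay between 1.91 and 2.37. It appeared at the 2-cell stage with 9.57, 10.36 and 10.22, at least 51.6-fold above the 1-cell stage (adjusted p = 8.25e-24, at least 65.8-fold without replicate 1). The level rose by 2.77 ± 0.19 to the 4-cell stage (1.12e-13, 2.43 without replicate 1), held between 12.1 and 12.9 to the morula and fell by 1.91 ± 0.19 to the blastocyst (1.84e-09). Gata5, a heart and endoderm factor, ran the other way: it declined from 10.6 ± 0.20 in GV oocytes to 6.77 ± 0.25 at the 4-cell stage, with the called step of -2.72 ± 0.19 from the 2-cell stage (1.99e-13, -3.13 without replicate 1), stayed at 6.39 ± 0.43 at the 8-cell stage and was 1.54 ± 0.19 higher in the blastocyst than in the morula (1.26e-07). Over the 13 condition means Gata1 and Gata5 had r = -0.90, the strongest of the 15 pairs of members, a description over conditions that share arrays and scale.

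Between consecutive untreated stages, 0 of 6 members were called from GV to MII (36.3% of all genes) and 0 from MII to the 1-cell stage (15.6%), 3 of 5 from 1-cell to 2-cell (40.9%) and 3 of 5 from 2-cell to 4-cell (46% of all genes), both without Gata2, 3 of 6 from 4-cell to 8-cell (10.1%), 3 of 6 from 8-cell to morula (27% of all genes) and 5 of 6 from morula to blastocyst, 4 higher and 1 lower (21.1% of all genes, 15.5% higher and 5.56% lower). Of the 17 called differences, 17 had the same sign within each of the 3 slides. This had to be so, since the arrays of the compared stages did not overlap, and it adds no support. For the blastocyst against morula difference of Gata2 the within-slide values ran from 6.69 to 8.74, and for the 2-cell to 4-cell difference of Gata6 from 4.21 to 4.28. The GV to MII comparison depended on the scaling. With each array scaled by its 75th percentile, Gata3, Gata4, Gata5 and Gata6 were all called higher in MII oocytes, while the median of all genes moved by 0.92 in place of -0.60 and the calls over all genes changed from 58 higher and 8042 lower to 5050 higher and 3576 lower.

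**Figure D1:**
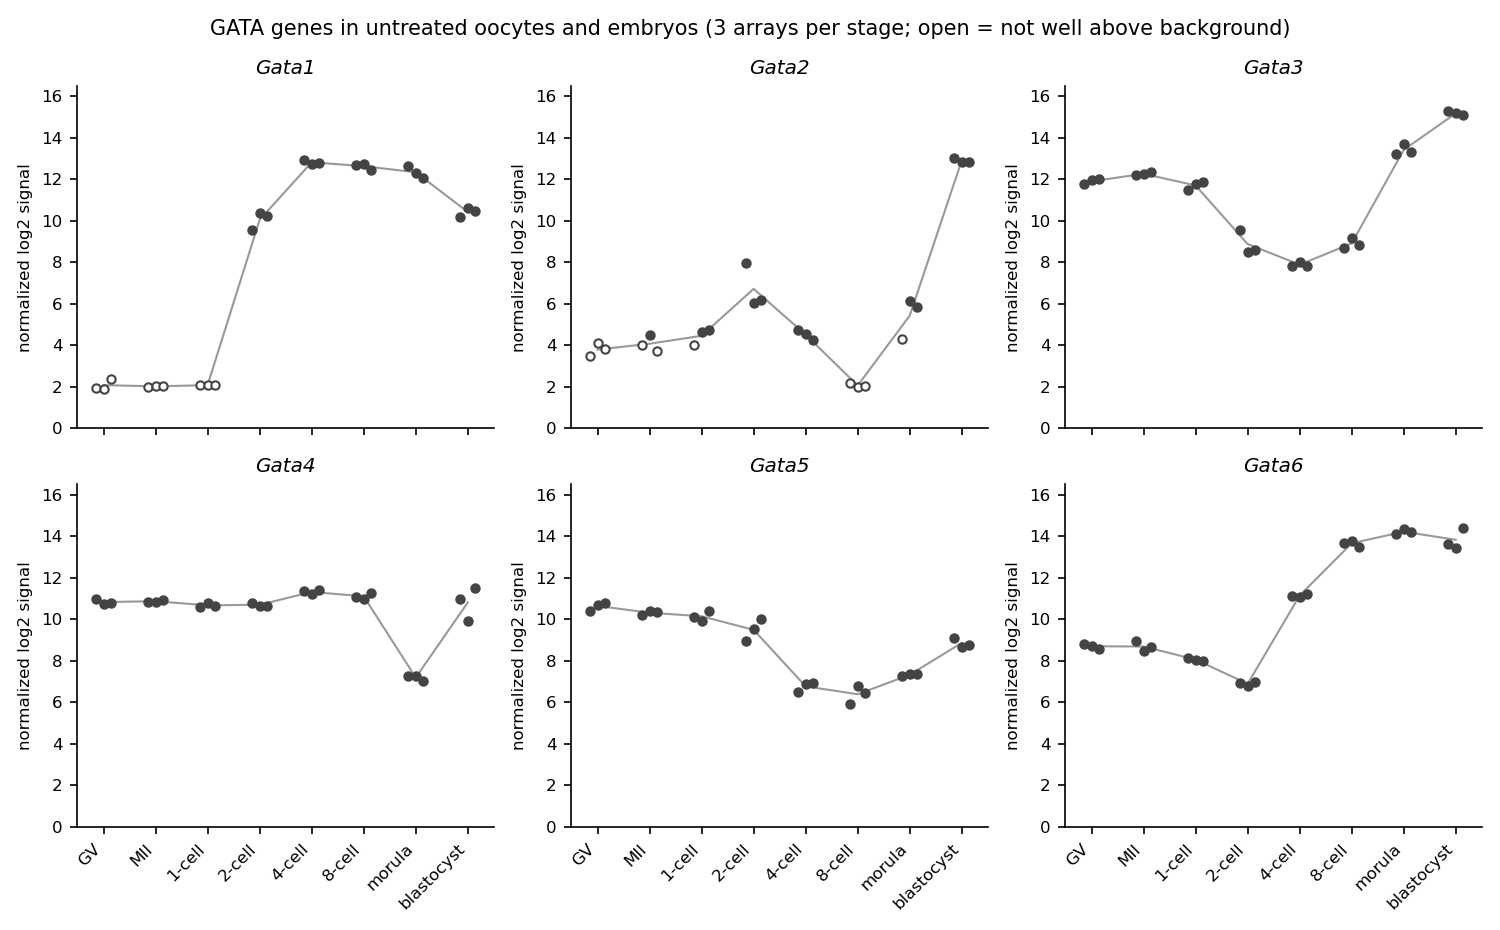
Normalized log2 signal of the 6 GATA genes (vertical axis) in untreated GV and MII oocytes and 6 embryo stages (horizontal axis). Each point is 1 array, open where the signal was not well above background, and the line joins the means of 3 arrays. Gata1 appears at the 2-cell stage, Gata2 is bright in the blastocyst, Gata3 is dimmest at the 4-cell stage, and Gata4 is low in the morula at 7.04 to 7.28.

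At the 1-cell stage neither inhibitor gave a called difference in any member. The counts were 0 of 6 for T247 (4.24% of all genes were called) and 0 of 6 for MGCD0103 (2.65%). Gata2 read 5.13, 4.96 and 5.28 with T247 and 4.80, 4.75 and 4.14 with MGCD0103, against 4.02, 4.64 and 4.73 in the controls. Its difference was 0.66 (95% interval -0.12 to 1.44, adjusted p = 0.291) for T247 and 0.10 (-0.68 to 0.88, 0.911) for MGCD0103. The intervals give the range of differences compatible with these arrays, and for T247 that range reaches past the size threshold. For Gata4 with T247 the difference was -0.58 ± 0.21 (0.0601), and the other members lay between -0.29 and 0.35. Gata1 remained not well above background on all 6 treated arrays.

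At the 2-cell stage Gata2 read 12.17, 11.94 and 11.93 with T247 and 11.79, 11.94 and 12.04 with MGCD0103, against 7.95, 6.03 and 6.18 in the controls. The means were 5.29 and 5.20 above the control, 39.2-fold and 36.8-fold, and 5.69 and 5.59 without control replicate 1. The T247 value of Gata2 ranged from 5.07 to 6.28 over 16 alternatives. These values chose the family and carry no test. Both treated levels lay within 1 unit of the untreated blastocyst mean of 12.9, below it without overlap, and above all other untreated stages.

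The other 5 members moved less and in both directions at the 2-cell stage. With T247, 1 of 5 was called higher and 3 lower, beside 20.3% of all genes called (8.2% higher and 12.1% lower). With MGCD0103, 1 was called higher and 2 lower, beside 22.5% of all genes (10.6% higher and 11.9% lower). Both comparisons use the 3 control arrays that chose Gata2, and nothing is read from the counts. With 75th percentile scaling the calls over all genes went from 1831 higher and 2701 lower to 2987 and 1244 for T247, and from 2363 and 2651 to 3471 and 2025 for MGCD0103. Gata1 read 9.57, 10.36 and 10.22 in the controls, 9.13, 8.80 and 8.62 with T247 and 6.24, 6.63 and 6.28 with MGCD0103. The 3 groups did not overlap, and Gata1 fell by 1.199 ± 0.19 with T247 (adjusted p = 7.16e-06). With MGCD0103 it fell by 3.67 ± 0.19 (5.09e-15), a 12.7-fold fall. Gata3 read 9.55, 8.50 and 8.60 in the controls, 9.70, 10.11 and 10.07 with T247 and 10.50, 10.39 and 10.45 with MGCD0103. It rose by 1.07 ± 0.19 (2.28e-05) and by 1.56 ± 0.19 (6.05e-08), and both treated groups stayed below the 1-cell level of 11.7. Gata5 read 8.94, 9.53 and 10.00 in the controls, and fell by 1.099 ± 0.19 with T247 (2.74e-05) and by 1.34 ± 0.19 with MGCD0103 (1.53e-06), with treated arrays between 8.05 and 8.43. Gata4 fell by 1.05 ± 0.21 with T247 (0.000133), from 10.64 to 10.79 in the controls to 9.58 to 9.75, while its MGCD0103 difference of -0.66 ± 0.21 (0.0110, -0.71 without control replicate 1) was under the size threshold. Gata6 did not reach that threshold with either inhibitor, with differences of 0.33 ± 0.15 (0.0750) and 0.63 ± 0.15 (0.000973), or 0.14 and 0.44 without control replicate 1, though none of the 6 treated arrays overlapped with the controls.

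The 4 calls for T247 were close to the threshold. Without control replicate 2 none of them reached a difference of 1 (-0.94 for Gata1, 0.999 for Gata3, -0.99 for Gata4 and -0.97 for Gata5), without replicate 3 only Gata1 and Gata4 did, and without replicate 1 all 4 did (-1.55, 1.25, -1.101 and -1.498). With scaling by the 75th percentile only Gata3 passed, at 1.47, and Gata1, Gata4 and Gata5 were at -0.77, -0.64 and -0.67. The 3 calls for MGCD0103 held in every alternative in which the gene was measured, with Gata1 between -4.21 and -3.23, Gata3 between 1.44 and 1.98 and Gata5 between -1.74 and -1.07. Without control replicate 1 these stood at -4.01, 1.74 and -1.74.

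**Figure D2:**
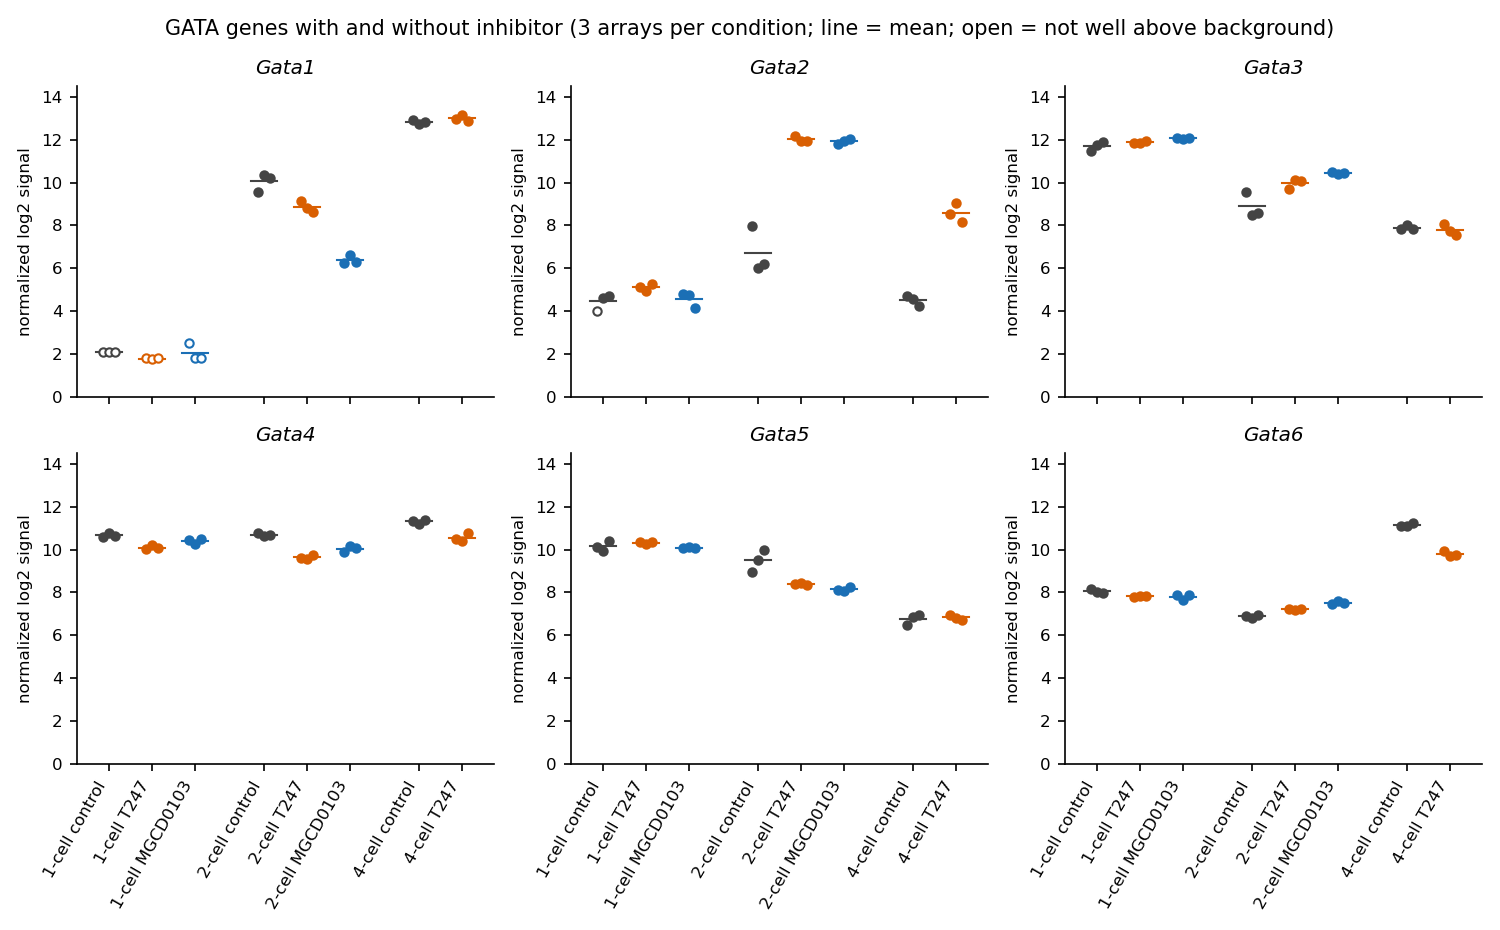
Normalized log2 signal (vertical axis) of each GATA gene in control (grey), T247-treated (orange) and MGCD0103-treated (blue) embryos by stage and treatment (horizontal axis). Each point is 1 of 3 arrays, open where it was not well above background, and short lines are means. Gata2 sits at 11.79 to 12.17 on the 6 treated 2-cell arrays and at 6.03 to 7.95 on the controls, while Gata1 is lowest with MGCD0103.

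At the 4-cell stage, measured in control and T247-treated embryos and on arrays other than those that chose the family, Gata2 was still raised. The T247 arrays read 8.55, 9.05 and 8.18 and the controls 4.72, 4.57 and 4.26, without overlap. The difference was 4.07 ± 0.38 (adjusted p = 3.07e-09), or 16.8-fold, and lay between 2.78 and 4.26 over 16 alternatives. The T247 level at the 4-cell stage was below that at the 2-cell stage. Those 2-cell arrays chose the family for being high, so this is a description with no test. Gata6 read 9.91, 9.71 and 9.76 with T247 and 11.12, 11.08 and 11.22 in the controls, and fell by 1.35 ± 0.15 (4.98e-08), the only other member called. That placed T247-treated embryos between the 2-cell and 4-cell control levels of Gata6. Gata4 was lower by less than the size threshold, -0.77 ± 0.21 (0.00457). Gata1, Gata3 and Gata5, which had been called at the 2-cell stage, differed by 0.16, -0.09 and 0.07, with 95% intervals inside -0.47 to 0.56, and their arrays overlapped with the controls. Thus 1 of 6 members was called higher and 1 lower, beside 12.9% of all genes (8.81% higher and 4.12% lower). The T247 arrays lay on slides 4 and 5, and those of both slides were above all controls for Gata2 and below them for Gata6. The change of a difference between stages is given in the closing section. Beside it stand 15.4% of all genes called for T247 and 17.5% for MGCD0103 between the 1-cell and 2-cell stages, and 20.4% for T247 between the 2-cell and 4-cell stages.

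The 2 inhibitors were compared at the same dose, exposure and time. At the 2-cell stage 1 of the 5 members other than Gata2 was called (4.98% of all genes). For Gata1 the MGCD0103 level minus the T247 level was -2.47 ± 0.19 (adjusted p = 1.41e-09). The Gata2 difference of -0.09 uses the arrays that chose the family and carries no test. Gata3 was 0.49 ± 0.19 higher with MGCD0103 (0.0541), and Gata4, Gata5 and Gata6 differed by 0.39, -0.24 and 0.30. None of those 4 reached the threshold. At the 1-cell stage 0 of 6 were called (0.157%), with differences between -0.56 and 0.30.

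**Figure D3:**
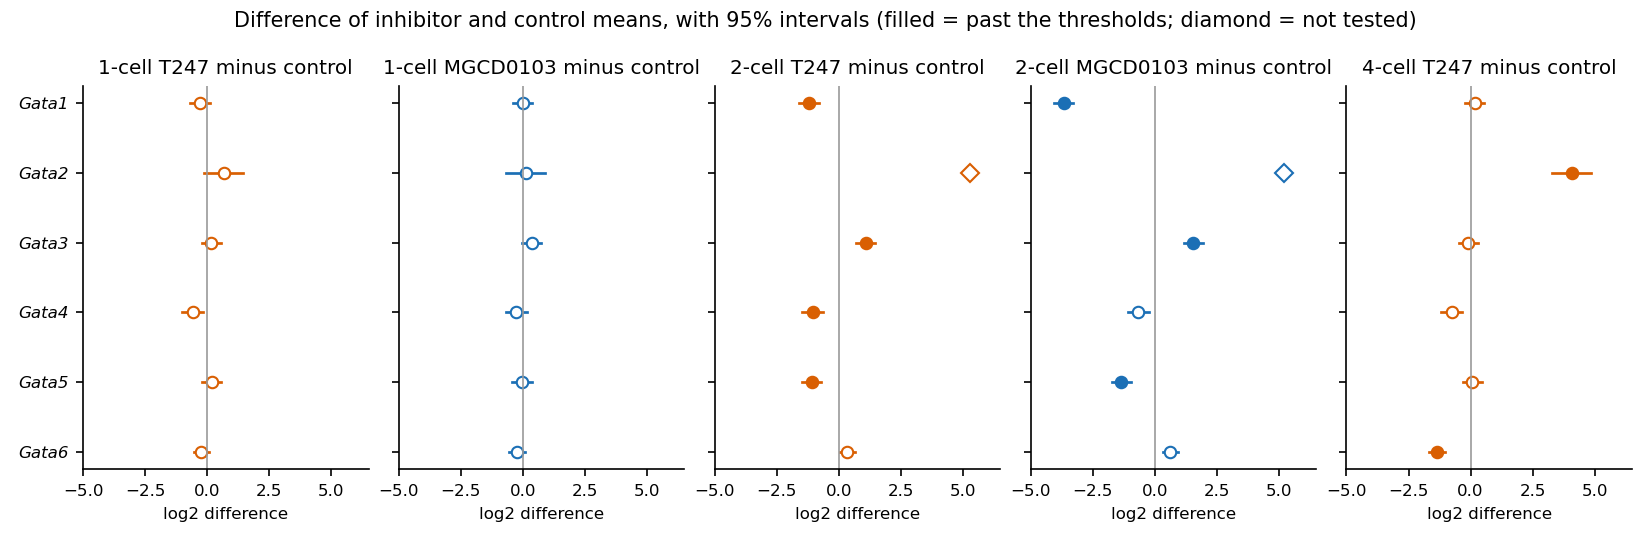
Log2 difference of inhibitor and control means (horizontal axis) for the 6 GATA genes (vertical axis) in the 5 comparisons, with 95% intervals from the fit over 39 arrays. Filled circles passed the thresholds, open circles did not, and diamonds are the 2-cell values of Gata2, which carry no test. Gata2 lies at 5.29, 5.20 and 4.07, and Gata1 reaches -3.67 with MGCD0103 at the 2-cell stage.

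The genes that work with GATA factors were described by lists. Of 16 partners and cofactors, such as Zfpm1 (FOG1), Tal1, Lmo2 and Ldb1, 2-cell embryos had 2 called higher and 1 lower after T247 and 4 higher after MGCD0103 (2 without control replicate 1), beside the 20.3% and 22.5% of all genes called in either direction. Without control replicate 1, 29.1% of all genes were called with MGCD0103. The list medians over all arrays were -0.09 and 0.32, against -0.23 and -0.01 for all genes. Runx1, a regulator of blood stem cells, was 1.84 ± 0.33 higher with T247 (adjusted p = 3.41e-05) and 1.42 ± 0.33 with MGCD0103 (0.000772), and was also higher with T247 at the 4-cell stage, 1.19 ± 0.33 (0.00512). Lmo2, a bridging protein of the blood GATA complex, was 1.83 ± 0.47 and 1.28 ± 0.47 higher (0.00200 and 0.0272), from controls well above background on 1 array. Without control replicate 1 the MGCD0103 difference of Runx1 was 0.92 and those of Lmo2 were 0.89 and 0.34, so these calls were lost, whereas the T247 difference of Runx1 was 1.33 and kept its call. Tbx5, a heart partner of Gata4, was called with MGCD0103, at least 1.72-fold above controls in which it was not well above background (0.000249, at least 1.80-fold without control replicate 1), and was also higher with MGCD0103 than with T247, 1.07 ± 0.36 (0.0274). Tcf3, a dimer partner of Tal1, was the one called lower with T247, -1.02 ± 0.11 (2.09e-08, -1.24 without control replicate 1).

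Among 9 other genes with GATA-type zinc fingers, 1 was called lower with each inhibitor at the 2-cell stage, beside 12.1 and 11.9% of all genes called lower, and it was Mta2, a subunit of the NuRD deacetylase complex, at -3.54 ± 0.21 with T247 (adjusted p = 1.40e-13) and -4.39 ± 0.21 with MGCD0103 (9.12e-16), or -4.00 and -4.84 without control replicate 1. At the 4-cell stage Mta3, another subunit, differed by -1.06 ± 0.18 with T247 (2.85e-05). None of the 16 partners or 9 zinc finger genes was called at the 1-cell stage, where 4.24% of all genes were called with T247 and 2.65% with MGCD0103. With shares this low, nothing is read from that count.

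The trophectoderm network, genes active with Gata2 and Gata3 in the outer layer, had 7 of 14 members called higher and 0 lower after T247 in 2-cell embryos and 5 higher after MGCD0103, beside 8.2 and 10.6% of all genes called higher. The list medians were 0.91 and 0.82, against -0.23 and -0.01 for all genes. The summed log2 signal of 5 trophectoderm markers lay at 10.63 to 11.17 in 2-cell controls, 12.39 to 12.57 with T247, 12.38 to 12.60 with MGCD0103 and 18.95 to 19.03 in the blastocyst, and Elf5 was on no 2-cell T247 array. The keratin genes Krt18 and Krt8 were 1.76 ± 0.51 (adjusted p = 0.00578) and 1.72 ± 0.20 (2.68e-08) higher with MGCD0103, Krt18 was 1.70 ± 0.51 higher with T247 (0.00746), and Hand1, a placental factor, was 1.80 ± 0.44 and 2.23 ± 0.44 higher (0.00129 and 0.000130), from controls well above background on 2 arrays. Without control replicate 1 the counts were 3 and 5 of 14, beside 1785 and 2817 of 22327 genes called higher. Hand1 then stood at 0.66 with T247 and 1.09 with MGCD0103, and Krt8 at 1.60 with MGCD0103. Krt18, at 1.12 and 1.18, was no longer called with either inhibitor. At the 4-cell stage 1 of 14 was called higher, beside 8.81% of all genes. It was Tfap2a at 1.85 ± 0.29 (7.96e-06), from controls well above background on 1 array.

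The primitive endoderm network, in which Gata4 and Gata6 act, had 2 of 16 members higher with T247 and 3 higher and 1 lower with MGCD0103 at the 2-cell stage (3 and 2, and 5 and 2, without control replicate 1), counts beside which 8.2 and 10.6% of all genes were called higher and 12.1 and 11.9% lower. Without control replicate 1, 1785 of 22327 genes were called higher and 3953 lower with T247, and 2817 and 3686 with MGCD0103. The list medians over all arrays were 0.06 and 0.70, against -0.23 and -0.01 for all genes. Foxa2, an endoderm transcription factor, was at least 6.99-fold and 5.81-fold above controls in which it was not well above background (adjusted p = 3.15e-15 and 2.22e-15), bounds that were 7.24-fold and 6.04-fold without control replicate 1. Sox17, another endoderm factor, was 2.31 ± 0.55 and 2.07 ± 0.55 higher (0.000952 and 0.00278, 2.67 and 2.43 without control replicate 1). Amn, a yolk sac receptor component, differed by -2.19 ± 0.39 with MGCD0103 (3.61e-05, -3.02 without control replicate 1). At the 4-cell stage 1 was higher (Sparc, 1.12 ± 0.32, 0.00729) and 1 lower (Pdgfra, -1.07 ± 0.35, 0.0174, well above background on 1 T247 and 2 control arrays), beside 8.81% and 4.12% of all genes. In untreated embryos 16 of 16 were called higher in the blastocyst than in the morula, beside 15.5% of all genes, with a list median of 2.37 against 0.07 for all genes.

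Of 16 blood and mast cell genes known as GATA1 or GATA2 targets, 1 was called at the 2-cell stage with each inhibitor, beside 20.3% and 22.5% of all genes. In both cases it was Hba-a1, an alpha globin, at 1.63 ± 0.31 with T247 (adjusted p = 8.88e-05, 1.25 without control replicate 1) and 1.17 ± 0.31 with MGCD0103 (0.00300), the latter 0.80 and lost without control replicate 1. The list medians stood at -0.06 and -0.07, against -0.23 and -0.01 for all genes. At the 1-cell stage Hba-a1 was higher with T247 by at least 1.495-fold (0.00506), from controls in which it was not well above background, and at the 4-cell stage it was 1.90 ± 0.31 higher (1.99e-05). Itga2b, a platelet integrin, was also called higher at the 4-cell stage with T247 (1.96e-05). It was well above background on 2 T247 arrays and on no control array, and its level was too low for a bound on the fold. Alas2, the red cell haem enzyme, differed by -1.56 ± 0.50 at the 4-cell stage (0.0156), well above background on 1 T247 and 2 control arrays.

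Among 8 epiblast and pluripotency genes, 0 were called after T247 in 2-cell embryos and 2 lower after MGCD0103, beside 20.3% of all genes called with T247 and 11.9% called lower with MGCD0103. The list medians were -0.34 and -0.43, against -0.23 and -0.01 for all genes. Those called were Fgf4 at -1.53 ± 0.39 (adjusted p = 0.00178) and Nanog at -1.05 ± 0.43 (0.0470). Without control replicate 1 these counts were 2 and 4 lower, beside 3953 and 3686 of 22327 genes called lower. Fgf4 then stood at -2.59 with MGCD0103, and Nanog, at -1.09, was not among those called. At the 4-cell stage 2 were called higher and 3 lower with T247, beside 8.81% and 4.12% of all genes. The 3 with the largest differences were Sox2, at least 2.67-fold above controls in which it was not well above background (1.30e-07), Nanog at -1.85 ± 0.43 (0.00111), well above background on 1 T247 array, and Prdm14 at -1.69 ± 0.35 (0.000375).

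The protein-coding genes next to each member on the array, by RefSeq order, were compared with the member. Beside Gata2, Rpn1 differed by 0.06 ± 0.20 with T247 and -0.02 ± 0.20 with MGCD0103 at the 2-cell stage (adjusted p = 0.827 and 0.949), or -0.51 and -0.59 without control replicate 1, under the size threshold in both. Dnajb8, on the other side, was not well above background on any of those arrays. Beside Gata1 lie Hdac6, itself a histone deacetylase gene, and Glod5. Glod5 was called lower with both inhibitors at the 2-cell stage, as Gata1 was, at -2.22 ± 0.41 (4.71e-05) and -3.63 ± 0.41 (1.89e-08), or -2.90 and -4.32 without control replicate 1. With MGCD0103 Glod5 was well above background on 1 array only, so the size of that fall is uncertain. Of all genes 12.1% were called lower with T247 and 11.9% with MGCD0103, and a link between neighbours was not tested. Hdac6 differed by -0.50 ± 0.12 and -0.67 ± 0.12 (0.000764 and 2.72e-05), under the size threshold, and by -0.68 and -0.85 without control replicate 1. At the 4-cell stage Glod5 differed by -0.09 ± 0.41 and Gata1 by 0.16. The neighbours of Gata3, Gata4 and Gata6 had no called difference with either inhibitor. Those of Gata5, Rbbp8nl and Slco4a1, were called at the 4-cell stage only, 1.21 ± 0.27 and 1.92 ± 0.35 higher with T247 (0.000748 and 8.62e-05). Rbbp8nl was well above background on 1 control array there, and 8.81% of all genes were called higher.

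Among 13733 genes that were well above background on all 3 arrays of at least 1 condition and whose condition means had an SD of at least 1, the 5 whose 13 condition means were most like those of Gata2 were Prrg4 (r = 0.958), E230029C05Rik (0.958), 1700019A02Rik (0.949), AA986860 (0.943) and Wipf3 (0.941). Prrg4 encodes a small membrane protein and Wipf3 an actin-regulating protein. All 5 had higher means on the 2-cell arrays of both inhibitors and in the blastocyst than in 2-cell controls, which a choice by likeness to Gata2 brings about. E230029C05Rik was dim, with a blastocyst mean of 5.37. Prrg4 had means of 6.10 in 2-cell controls, 8.04 with T247, 8.00 with MGCD0103 and 7.89 in the blastocyst, and 1700019A02Rik had 4.30, 8.04, 7.60 and 7.95. Gata2 spanned more, from 2.06 to 12.9. The conditions share arrays, scale and the 2-cell controls, and the likeness was computed with the values that chose Gata2, so it is a description.

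**Figure D4:**
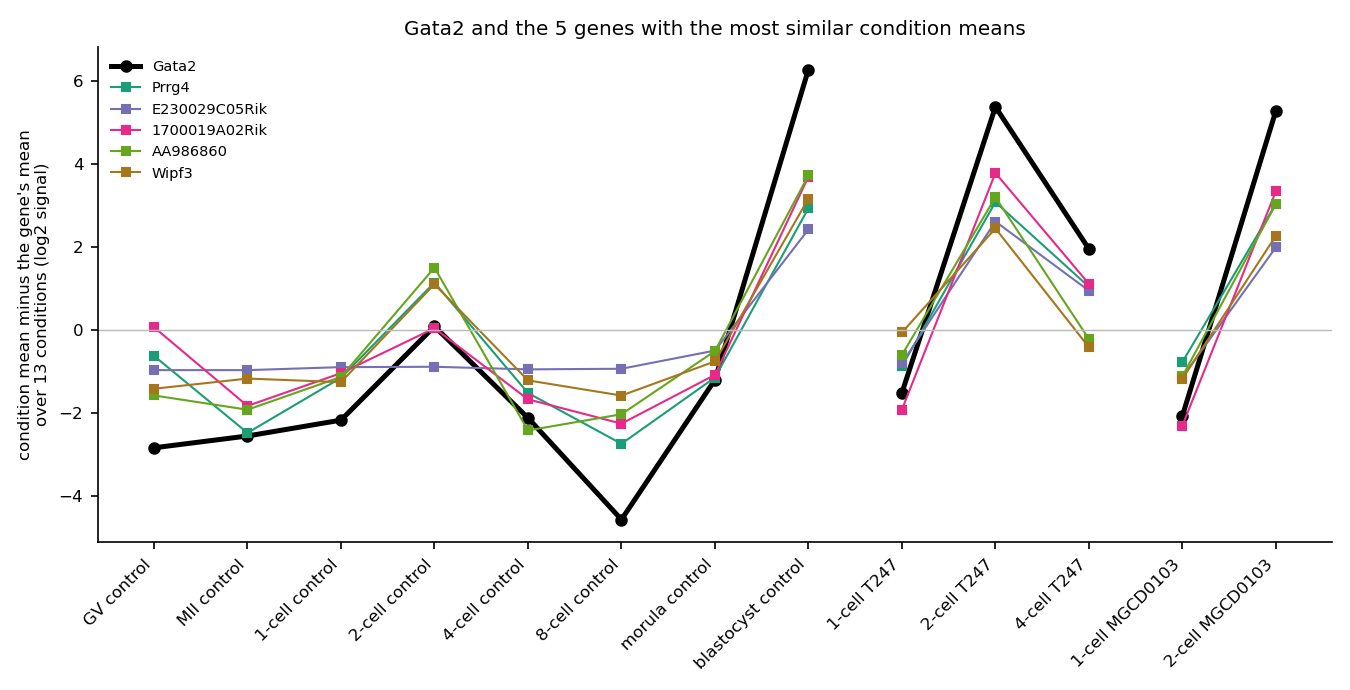
Condition means of Gata2 (black) and of the 5 genes with the highest Pearson correlation to it, each minus the gene's own mean over the 13 conditions (vertical axis, log2 signal), for 8 untreated, 3 T247 and 2 MGCD0103 conditions (horizontal axis). Lines join conditions of the same treatment. All 6 genes are high in the blastocyst and on the treated 2-cell arrays.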

How the data were processed

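The 39 arrays were 1-colour Agilent mouse arrays hybridised with Cy3-labelled cRNA amplified from 100 oocytes or embryos. The deposited scanner intensity (processed signal) had its background removed and its spatial trend corrected array by array by the authors with Agilent Feature Extraction, given as version 9.5.1.1 in the submitters' processing notes, whereas the file headers list modules of version 10.7.1.1, and had not been normalized between arrays. Each file held 59305 spots for 55681 probes, 0 of them saturated, and 44.4 to 58.3% of signals on an array were well above background. The deposited log2 values of the series matrix, which the authors had filtered, filled in and smooth-quantile-normalized, held 19143 probes and 4 of the 6 members (not Gata1 or Gata2), and served as an alternative.

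Spots of a probe were averaged, probes were named by accession, symbol or synonym through RefSeq (24301 had no name and were left out), and the brightest probe stood for a gene, which gave 22327 genes. The log2 signals were smooth-quantile-normalized over 13 conditions, with code written for this work and tested on simulated data, and all 39 arrays were fitted together in limma 3.58.1 (R 4.3.3), with Benjamini-Hochberg adjustment within each comparison. The study's filter on detected probes was not used for the values reported because it covers 24 arrays and drops Gata1, so it was an alternative (15777 genes). Where 1 of the conditions compared had no array well above background, a called difference is given as a bound on the fold. Gata2 was left out of every test that uses 2-cell arrays, and Gata1 out of tests of a change from the 1-cell stage, although these had been planned for all 6 members. Figures used Python 3.11.15 and matplotlib 3.10.9.

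The members, gene lists and comparisons were chosen with earlier results of these data known. Genes were named by rule: the 6 members, per list and comparison the 3 called genes with the largest difference, the nearest protein-coding gene on either side, and the 5 genes most like Gata2 among those with an SD of condition means of at least 1. Precision is limited by having 3 arrays a condition. Alternatives were scaling, background correction, filter, probe rule, variance prior, slide or replicate as a block, and leaving out each array. Slide as a fixed block, and list counts under other scalings or without 2-cell control replicate 1, were added after seeing the data. One gene counted in the target lists is not reported here by name.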

Additional observations from a re-analysis of the deposited data

Results flagged for a closer look

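The change of an inhibitor's difference from one stage to the next was tested as an interaction in limma. From the 1-cell to the 2-cell stage 4 members were tested for each inhibitor, and from the 2-cell to the 4-cell stage 5 for T247. Of these tests, 7 were past the thresholds (log2 change of at least 1, adjusted p below 0.05). Gata2 was not tested, nor was Gata1 in the changes from the 1-cell stage, where it was not well above background on any array. Between the 1-cell and 2-cell stages the T247 difference of Gata5 changed by -1.28 ± 0.27 (adjusted p = 0.000687), where 15.4% of all genes were called (-1.67 without 2-cell control replicate 1). For MGCD0103 (17.5% of all genes) the difference of Gata3 changed by 1.21 ± 0.26 (0.000757) and that of Gata5 by -1.29 ± 0.27 (0.000591), or by 1.39 and -1.69 without that array. Between the 2-cell and 4-cell stages the T247 difference changed by 1.36 ± 0.27 for Gata1 (0.000256), -1.16 ± 0.26 for Gata3 (0.00101), 1.17 ± 0.27 for Gata5 (0.00134) and -1.68 ± 0.21 for Gata6 (4.78e-07), beside 20.4% of all genes. The 4-cell differences themselves were 0.16, -0.09, 0.07 and -1.35 for these 4 genes. Without 2-cell control replicate 1 the changes from the 2-cell to the 4-cell stage were 1.71, -1.34, 1.57 and -1.49 for Gata1, Gata3, Gata5 and Gata6, and the T247 change of Gata3 from the 1-cell to the 2-cell stage, at 1.09, was called as well. For Gata2 the same changes were 4.63 for T247 and 5.10 for MGCD0103 from the 1-cell to the 2-cell stage and -1.22 for T247 from the 2-cell to the 4-cell stage, as a description (5.02, 5.48 and -1.59 without that array). With 75th percentile scaling the Gata5 changes, in the order given, were -0.85, -0.92 and 0.80 and that of Gata1 was 0.95, none of them called. Those of Gata3 (1.55 and -1.52) and Gata6 (-2.07) kept their calls. Gata3 with T247 (1.29) and Gata6 with MGCD0103 (1.22), both from the 1-cell to the 2-cell stage, were then called too. The last Gata5 change lost its call in 6 of 23 alternatives. With 3 arrays in a condition, single arrays were not tested as outliers.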

How the results depend on the processing

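Of 34 called differences of members, 21 kept their call in every alternative that measured the gene, 13 lost it in at least 1, and 0 reversed. The 2-cell values of Gata2 ran from 5.07 to 6.28 for T247 and from 4.98 to 5.90 for MGCD0103 over 16 alternatives. The T247 count at the 2-cell stage went from 4 to 1 with 75th percentile scaling, quantile normalization or normexp background correction, to 2 with only the arrays compared, and ranged from 0 to 4 when arrays were left out in turn. From MII against GV, 0 calls became 4 with each of those 3 settings, which turned Gata5 from -0.33 to 1.21, 1.14 and 1.09 and Gata6 from -0.01 to 1.48, 1.32 and 1.02. Gata6 was 0.00441 in the series matrix and ranged from -0.0948 to 0.110 when arrays were left out, and Gata4 was -0.0204 with only the arrays compared and ranged from -0.0802 to 0.146. The uncalled 1-cell MGCD0103 difference of Gata2 became -0.0144 with 75th percentile scaling and -0.126 with quantile normalization, and ranged from -0.171 to 0.325 when arrays were left out. The cause of these moves was not tested. In the series matrix, which has 4 members, counts were 1 for T247 at the 4-cell stage, 0 for MGCD0103 against T247 at the 2-cell stage and 3 for blastocyst against morula, and with the study's filter, which has no Gata1, MGCD0103 against T247 at the 2-cell stage was 0. The 8-cell against 4-cell count was 1 with normexp, in which the Gata2 steps from 2-cell to morula were -0.84, -0.47 and 0.73. The change of the T247 difference from the 1-cell to the 2-cell stage was called for 2 members with quantile normalization and 1 to 2 when arrays were left out, and that from the 2-cell to the 4-cell stage for 2 with 75th percentile scaling and 3 to 4 when arrays were left out.

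With the replicate number as a block, 17 of 17 counts were unchanged and 0 calls of members changed. All replicate numbers occur in every condition, so this block can change only the error of a difference and not its size. Gata1 with T247 at the 2-cell stage thus stayed at -1.20. Same-numbered arrays deviated together weakly, with correlations of -0.11 to 0.13 over 21 pairs in the treatment comparisons (2 above 0.1) and -0.00117 to 0.159 over 21 pairs of untreated stages (7 above 0.1), where the number is also the slide, so the numbers were not taken as pairs. With the slide as a fixed block over the untreated arrays the counts between untreated stages were unchanged. Each of those slides holds every untreated stage, so this block too can change only the error. The slide as a random block had a consensus correlation of 0.052. Low signals set the limit for Gata1 before the 2-cell stage and for Gata2 in oocytes and at the 8-cell stage, where only bounds can be given.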
